A study of Mus musculus with 22 samples.

Results

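MHC class I processing and presentation is followed here through 10 genes: B2m, H2-K1, H2-D1, Tap1, Tap2, Tapbp, Psmb8, Psmb9, Nlrc5 and Erap1. They were chosen by name for their known roles in the pathway and found by symbol, each at 1 Ensembl identifier, among the 41388 genes in the deposited tables. The study sorted cells from tumors grown in mice whose Osx-cre transgene switches on the red reporter TdT (the Ai9 allele), and sequenced the RNA of the sorted populations. Its question, as the labels give it, is what the Osx+ cells of the tumor stroma express, with and without CD45, in WT and Cdh2-cKO mice. CD45 is the leukocyte surface protein encoded by Ptprc.

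All mice were C57BL/6 at postnatal day 56, carried a tumor, and carried Osx-cre and Ai9, the controls included. The WT groups were Osx-cre;Ai9 and the other groups were Cdh2-cKO;Ai9, in which Cdh2, the gene of N-cadherin, is deleted by label where the Cre is active. The Cre is driven by the Sp7 (osterix) promoter and can be repressed by doxycycline. The paper on this series kept its mice on doxycycline until weaning. This limits TdT to cells that had the Cre after that age and to their descendants, which need not have it still. The labels do not state the diet. The paper also describes a sort of stromal cells away from tumor cells that carried GFP. The sort gave 4 populations: double positive (TdT+ CD45+), CD45 single positive (TdT- CD45+), TdT single positive (TdT+ CD45-) and double negative (TdT- CD45-). There were 3 WT and 3 Cdh2-cKO libraries for the double positive, the CD45 single positive and the double negative population, and 2 WT and 2 Cdh2-cKO libraries for the TdT single positive population, 22 in all. The labels name orthotopic MMTV-BO1 tumors, while the design text of the series says subcutaneous. They state that 4 WT and 6 Cdh2-cKO mice were inoculated, that the replicates are biological and that the mean RNA integrity number was 8.95; they do not say which libraries came from the same mouse.

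Depth lay between 16594228 and 26784003 assigned reads a library, with a median of 18977040. The WT libraries held 17267392 to 23157130 and the libraries labelled Cdh2-cKO 16594228 to 26784003. A count of 0 allows up to 3 counts, which is 0.103 to 0.201 normalized CPM depending on the library; intervals of this kind cover counting error only. Normalized CPM here is the count scaled by the library size times edgeR's TMM factor.

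Class I molecules sit on the surface of nearly all nucleated cells and show peptides cut from the proteins made inside the cell to CD8+ T cells. The proteasome cuts the peptides, the transporter TAP carries them into the endoplasmic reticulum, an aminopeptidase trims them, and a loading complex places them on a heavy chain paired with beta-2 microglobulin. Interferon gamma is known to raise the whole route, and NLRC5 is known as the transactivator of class I genes. Stromal fibroblasts, endothelium, leukocytes and tumor cells can all use it, so a sorted tumor population is expected to hold some of its RNA. Of the 10 genes, 7 lie on chromosome 17, in or beside the mouse MHC.

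The start regions of these genes are shown because all 10 genes differed in the same direction between CD45+ and CD45- libraries. Whether the start regions bear on that difference was not tested, and 32.6% of all genes tested were also called higher in CD45+. RefSeq promoter entries on build GRCm38.p6 matched 8 of the 10 genes with 9 entries, of which H2-K1 has 2; Tap2 and Nlrc5 had none. The 250 bases before each start were searched on both strands, beside the same window of all 32851 entries. The B2m window is chr2:122147437-122147686 on the plus strand, and the first H2-K1 window is chr17:34000348-34000597 on the minus strand. Capitals mark, in order, GAAANNGAA, TGACG and ATTGG in B2m. In H2-K1 they mark GGGGATTCC, GAANNGAAA on the other strand, TGACG and ATTGG.
B2m: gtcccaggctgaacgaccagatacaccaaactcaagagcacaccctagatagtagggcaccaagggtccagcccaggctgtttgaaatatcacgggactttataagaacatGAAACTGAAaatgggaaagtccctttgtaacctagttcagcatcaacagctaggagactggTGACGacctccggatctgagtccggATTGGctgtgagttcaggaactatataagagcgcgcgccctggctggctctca
H2-K1: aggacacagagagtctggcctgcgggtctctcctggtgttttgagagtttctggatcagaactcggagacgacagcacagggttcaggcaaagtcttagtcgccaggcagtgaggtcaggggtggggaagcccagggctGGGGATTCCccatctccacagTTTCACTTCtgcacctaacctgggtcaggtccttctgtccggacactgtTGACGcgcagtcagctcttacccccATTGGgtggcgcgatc

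The letters GGGGATTCC, a known kappa B sequence, were in the windows of H2-K1 and H2-D1 and in 0.213% of all promoters. Interferon-response-like letters, GAANNGAAA or GAAANNGAA, were in 4 of the 8 genes (B2m, H2-K1, H2-D1 and Erap1) and in 12.5% of all promoters. The STAT-type letters TTCNNNGAA, which read alike on both strands, were found for Psmb8, as in 7.02% of all. TGACG was present for 5 of 8 (B2m, H2-K1, H2-D1, Tap1 and Psmb9) against 17.8% of all, and ATTGG for 6 of 8, those 5 and Tapbp, against 33.8%. The windows of Tap1 and Psmb9 face away from each other and overlap, so they share their matches. A match here describes letters and names no bound factor, and no match says only that the letters are not in the window.

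B2m, H2-K1 and H2-D1 also shared a spacing: TGACG and then ATTGG with 20 bases between them, which 30 promoters, or 0.0913% of all, hold. That pair was noticed after the sequences had been seen. The 30-base stretches from the first to the last letter of the pair lie at chr2:122147609-122147638 (plus strand), chr17:34000359-34000388 (minus strand) and chr17:35262993-35263022 (plus strand), and capitals mark the pair.
B2m: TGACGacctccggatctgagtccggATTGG
H2-K1: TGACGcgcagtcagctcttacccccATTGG
H2-D1: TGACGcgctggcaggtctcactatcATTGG
H2-K1 and H2-D1 had the same base at 23 of the 30 positions, B2m and H2-K1 at 13, and B2m and H2-D1 at 12. These counts include the letters of the pair, in capitals, which are the same by choice. The stretch from GGGGATTCC to the interferon-response-like letters, at chr17:34000429-34000458 and chr17:35262923-35262952, is the same in both heavy chain genes at 29 of 30 positions. Its 2 ends were chosen as matches to the searched letters.
H2-K1: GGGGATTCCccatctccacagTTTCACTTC
H2-D1: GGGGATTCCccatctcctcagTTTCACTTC

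**Figure D1:**
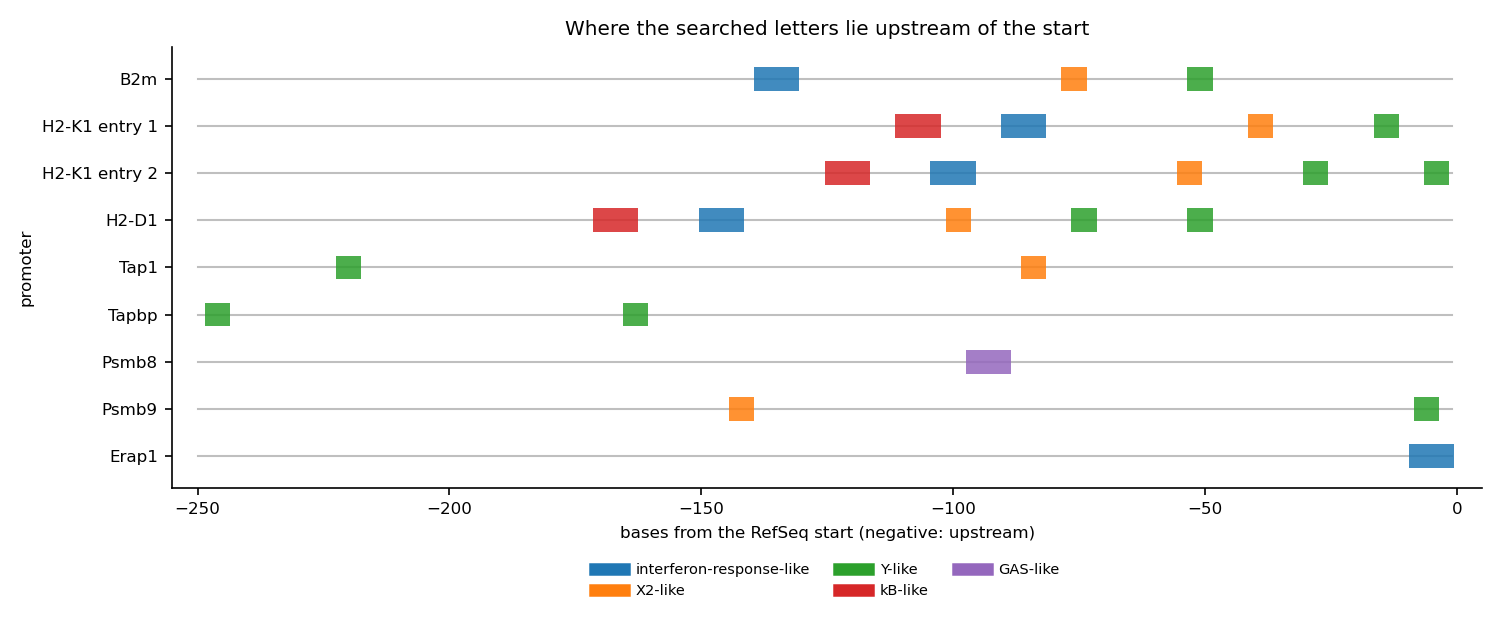
Bases upstream of the RefSeq start (x axis) at which the searched letters were found for each promoter entry (y axis). H2-K1 and H2-D1 share the same order of 4 matches, and B2m shows the last 3 of that order. H2-D1 and the second H2-K1 entry hold a further Y-like match after these, on the other strand. The grey line is the 250-base window. TGACG is drawn as X2-like, ATTGG as Y-like, TTCNNNGAA as GAS-like and GGGGATTCC as kB-like.

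Before the results, the sort was compared with marker genes fixed for each cell type, as summed normalized CPM. The 8 leukocyte markers (Ptprc, Cd52, Cd53, Coro1a, Laptm5, Lcp1, Itgb2 and Tyrobp) were all called higher in CD45+ libraries, where their sum lay between 13977 and 16948 with a median of 15199. CD45- libraries were not free of them. Their sums were 231 and 2233 in WT TdT single positive, 5487 and 2488 in TdT single positive labelled Cdh2-cKO, 215, 1275 and 8113 in WT double negative, and 392, 427 and 503 in double negative labelled Cdh2-cKO. No leukocyte marker was at 0 in any library, and Laptm5 or Cd53 was the most abundant of them in each. The 6 macrophage markers were all higher in CD45+ (10998 to 15943 in 11 of its libraries and 3583 in the other), with C1qb the most abundant in all 22. Fewer cells of a type and less RNA per cell cannot be told apart in bulk libraries.

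WT double negative replicate 3 therefore stood apart: Ptprc was at 337 normalized CPM there and at 4.46 and 38.6 in the other WT double negative libraries, and its macrophage sum was 8290. WT CD45 single positive replicate 2 stood apart in another way. Its sums were 3450 for the B cell list, 1840 for the T cell list and 814 for the NK list, where the next highest library had 21.6, 338 and 78.9, and its macrophage sum was the 3583 just given. Ifng, the gene of interferon gamma, was at 39.0 normalized CPM in that library and at most at 3.38 elsewhere. Values in which either library weighs are given with and without it where both were fitted.

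The other lists moved with the sort as follows. All 6 T cell and all 4 NK markers were higher in CD45+, as were all 4 neutrophil markers (sums 37.1 to 103 against 0.102 to 24.9). Of the 6 dendritic markers 4 were higher and 1 lower, and of the 3 B cell markers tested (of 4) 2 were higher. All 8 fibroblast markers were lower in CD45+, with sums of 69.7 to 260.4 against 5119 to 66918, and Col1a1 was the most abundant. All 6 endothelial markers (9.07 to 217 against 41.0 to 364) and all 3 erythroid markers (2.42 to 18.6 against 0.970 to 2457) were lower too. The 217 was WT CD45 single positive replicate 2, with Pecam1 at 214, a gene that no other CD45+ library had above 35.3. The epithelial tumor list had 3 markers lower and 2 higher, with sums of 132 to 470 against 33.8 to 1996; Krt18 was its most abundant gene in CD45- libraries, and Epcam was at 0 in 5 of those 10. Of the 5 osteogenic markers 3 were tested, all lower, with Runx2 the most abundant. Sp7, the gene whose promoter drives the Cre, was at 0 in 19 of 22 libraries, including all 10 TdT+ libraries, and Bglap was at 0 in 18, including 9 of the 10. Neither defining osteogenic marker passed 0.165 normalized CPM in any library. By real-time PCR the paper detected Sp7 in TdT+ cells sorted from melanoma, another tumor than the one here.

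Between CD45+ and CD45- libraries all 10 class I genes followed here differed, and all 10 were higher with CD45. The largest differences were in Psmb9 and Nlrc5 (log2 fold change 2.24 for each) and Psmb8 (1.75), and the smallest in Tapbp (0.55). The median over the 10 was 1.28, against 0.06 over all 15018 genes tested. By edgeR's quasi-likelihood test, Benjamini-Hochberg (BH) adjusted over those genes and called at 0.05, 10 of 10 were called, where 63.7% of all genes were called in either direction and 32.6% were called higher in CD45+. DESeq2 and limma also called 10. In the 11 libraries labelled Cdh2-cKO alone 10 passed, and in the 11 WT libraries alone 9 passed, without Tapbp (log2 0.47, adjusted p 0.0931). Without both libraries that stood apart 10 were called again, at 0.49 (Tapbp) to 2.28 (Psmb9). The leukocyte marker sums given above move with the same contrast, and their part in it was not tested.

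**Figure D2:**
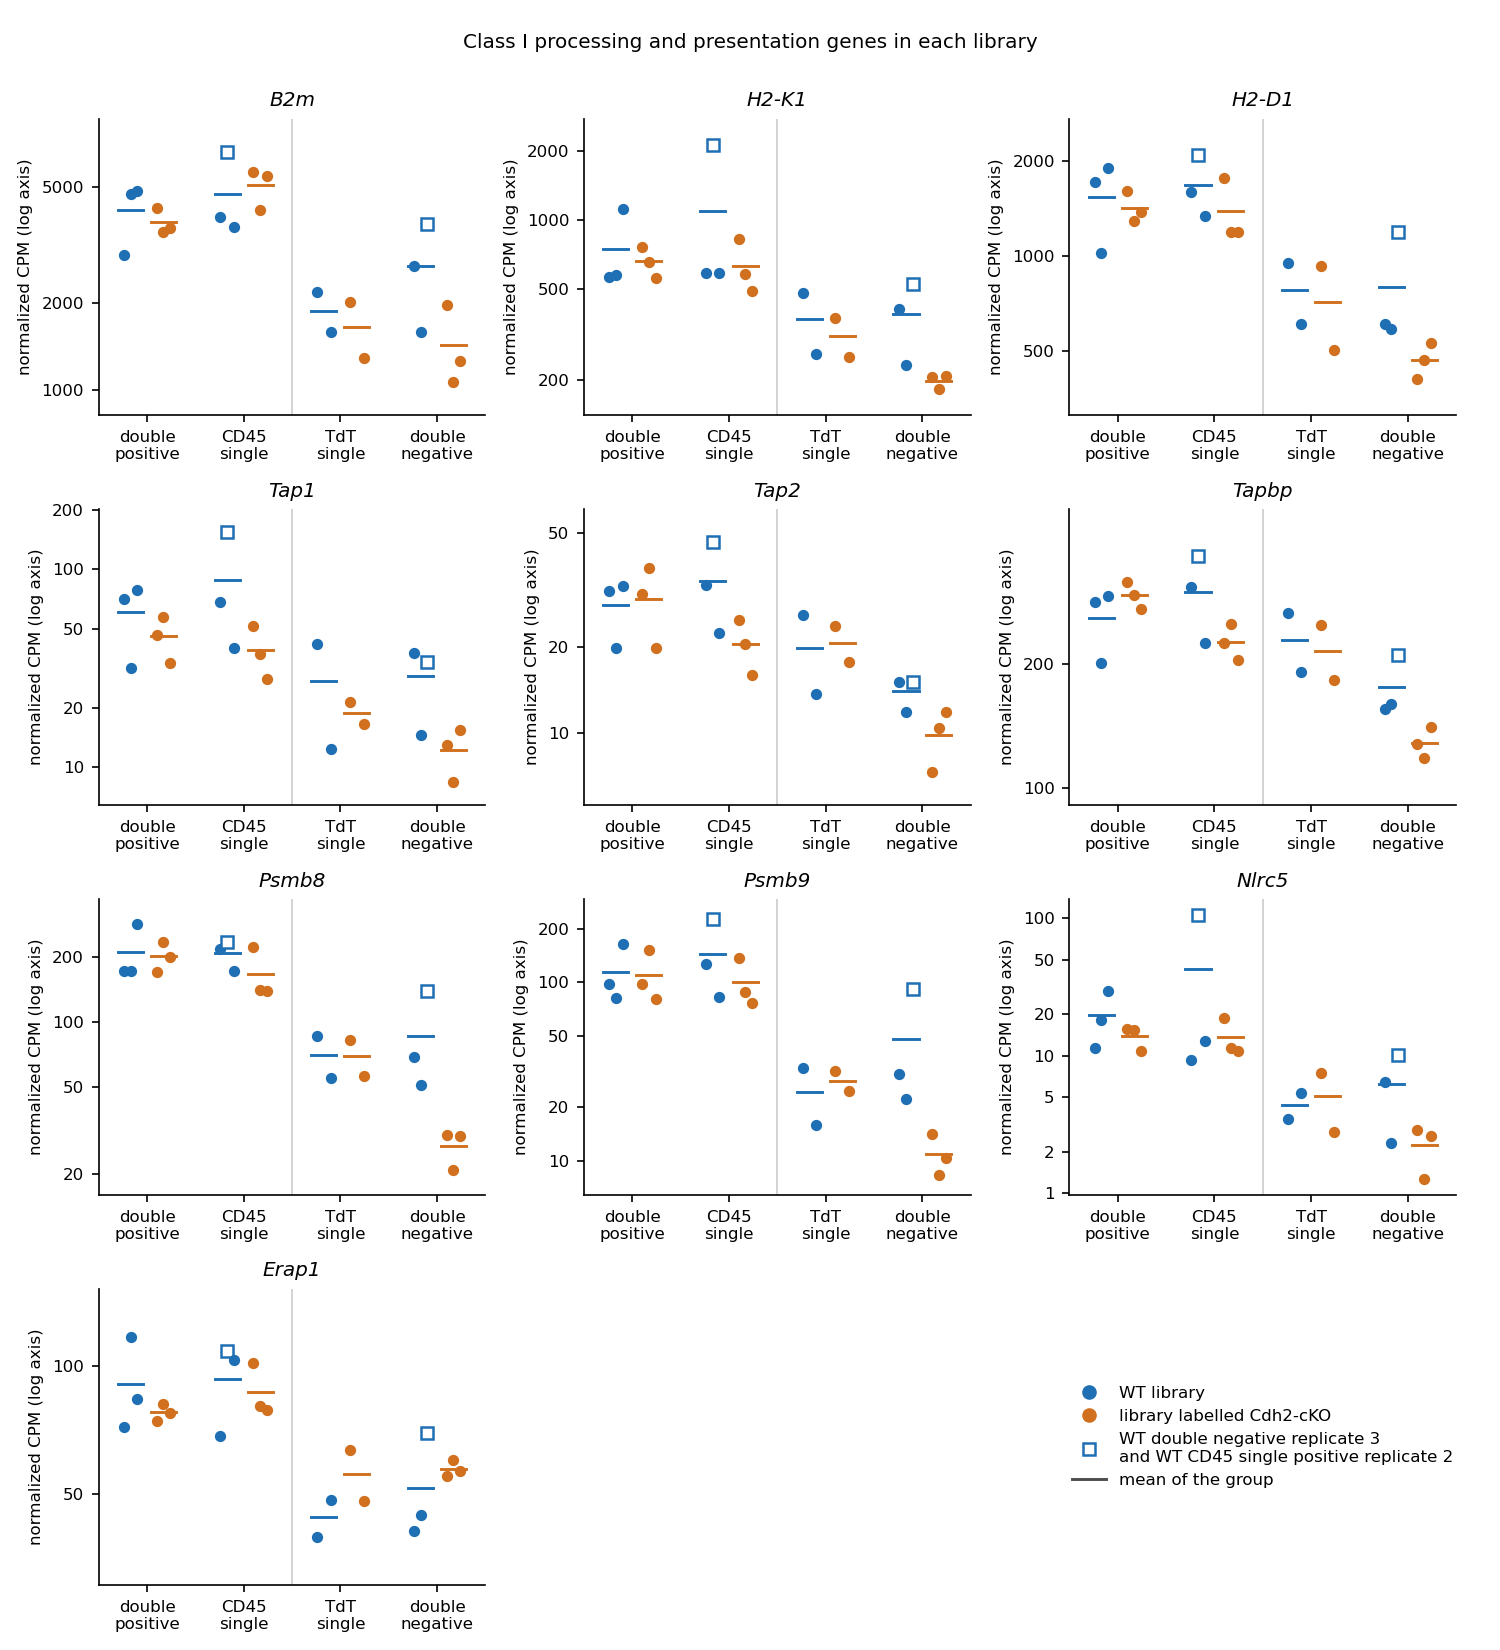
Normalized CPM (log axis) of the 10 genes in each library, by sorted population (x axis), with WT in blue, libraries labelled Cdh2-cKO in orange, group means as bars and the 2 libraries that stood apart as open squares. The CD45+ libraries, left of the grey line, have the higher median for each gene, but for 9 of the 10 genes they overlap with CD45- libraries. WT double negative replicate 3 is the highest CD45- library for 7 of the 10.

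The surface molecule comes first. B2m encodes beta-2 microglobulin, the light chain of every classical class I molecule. It lay at 2912, 4212 and 6589 normalized CPM (lowest, median and highest) in the 12 CD45+ libraries and at 1069, 1779.9 and 3726 in the 10 CD45- libraries. The ranges overlapped because of WT double negative replicate 3, the 3726: 8 of 12 CD45+ libraries were above it, and 12 of 12 were above every other CD45- library. The log2 difference was 1.25 ± 0.19 (SE), with an edgeR adjusted p of 2.06e-05. In the CD45- libraries with the lowest leukocyte sums, WT double negative replicate 1 (215) and WT TdT single positive replicate 1 (231), B2m was at 2686 and 2170.4.

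H2-K1 and H2-D1 encode the classical heavy chains, which hold the peptide. H2-K1 lay at 488, 586 and 2129 in CD45+ and at 183, 255 and 526 in CD45- libraries, and the 2129 belonged to WT CD45 single positive replicate 2. H2-D1 lay at 1024, 1489 and 2095 in CD45+ and at 409, 600.4 and 1195 in CD45- libraries. For both genes 11 of 12 CD45+ libraries were above every CD45- library, and 12 of 12 were once WT double negative replicate 3 was left out. The log2 differences were 1.32 ± 0.25 for H2-K1 (edgeR adjusted p 0.000174) and 1.15 ± 0.18 for H2-D1 (2.81e-05). Class I heavy chain genes resemble one another and only uniquely aligned reads were counted, so the level of each is uncertain.

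Among the peptide cutters, Psmb8 and Psmb9 encode the inducible catalytic subunits that replace Psmb5 and Psmb6 in the immunoproteasome. Psmb8 lay at 139, 186 and 283 normalized CPM in CD45+ and at 20.7, 55.9 and 138.5 in CD45- libraries. It was the only one of the 10 genes whose groups did not overlap over all 22 libraries, where 3.71% of all genes had every CD45+ library above every CD45- library. Psmb9 lay at 76.4, 97.8 and 225 against 8.39, 23.4 and 91.6, and its top CD45- value was again WT double negative replicate 3. The log2 differences were 1.75 ± 0.19 for Psmb8 (edgeR adjusted p 4.07e-07, 12 of 12 libraries above the highest CD45- library) and 2.24 ± 0.28 for Psmb9 (2.48e-06, 7 of 12). Without WT double negative replicate 3, 7 of the 10 genes did not overlap (B2m, H2-K1, H2-D1, Psmb8, Psmb9, Nlrc5 and Erap1) beside 8.04% of all genes. Without both libraries that stood apart it was again 7, beside 12% of all genes. Psmb9 and Tap1 gene models overlap over 212 bases on opposite strands (chr17:34187553-34187764), and whether reads were assigned by strand is not stated, so a small share of either count is uncertain.

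The ratio of an inducible to its constitutive subunit within a library does not depend on the library's size factor. The log2 ratio of Psmb8 to Psmb5, from length-scaled counts, was 0.23, 0.48 and 1.73 (lowest, median and highest) in CD45+ and -2.61, -1.36 and 0.32 in CD45- libraries. Psmb9 to Psmb6 was -4.00, -3.48 and -1.74 against -6.64, -5.23 and -3.32. Psmb10 to Psmb7, the remaining pair of catalytic subunits, was -0.63, 0.03 and 0.86 against -1.02, -0.54 and 0.09. Each ratio was higher with CD45 and each overlapped, with WT double negative replicate 3 as the top CD45- library for all 3. The differences were 1.85, 1.89 and 0.62, with two-sided permutation p of 2e-05, 4e-05 and 0.00134 and BH adjusted p over the 3 of 6e-05, 6e-05 and 0.00134; 2e-05 is the smallest p that 100000 resamples can give, and 8, 4 and 5 of 12 CD45+ libraries were above every CD45- library. Psmb5 itself was not called, with means of 40.1 normalized CPM with CD45 and 40.4 without. Without both libraries that stood apart the differences were 1.92, 1.96 and 0.62, with 11 of 11 CD45+ libraries above every CD45- library for Psmb8 and Psmb9.

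Within each genotype the same ratios were tested exactly, 6 CD45+ against 5 CD45- libraries. In libraries labelled Cdh2-cKO the differences were 2.20, 2.17 and 0.82, with exact permutation p of 0.00433, 0.00433 and 0.00866 (adjusted 0.00649, 0.00649 and 0.00866), and 0.00433 is the smallest p this design can give. In WT libraries they were 1.51, 1.61 and 0.43, with exact permutation p of 0.013, 0.0216 and 0.0693 (adjusted 0.0325, 0.0325 and 0.0693), so Psmb10 to Psmb7 did not pass there. All 6 Psmb8 and all 6 Psmb9 ratios of CD45+ libraries labelled Cdh2-cKO were above every CD45- library of that genotype, and 4 and 2 of 6 were in WT. The difference between genotypes in these ratios was not tested. With 4 WT and 6 Cdh2-cKO mice inoculated, the 11 libraries of each genotype cannot all come from different mice. The permutation tests of the ratios, here and over both genotypes, treat libraries as independent. No blocked version was run, so their p does not account for shared mice.

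**Figure D3:**
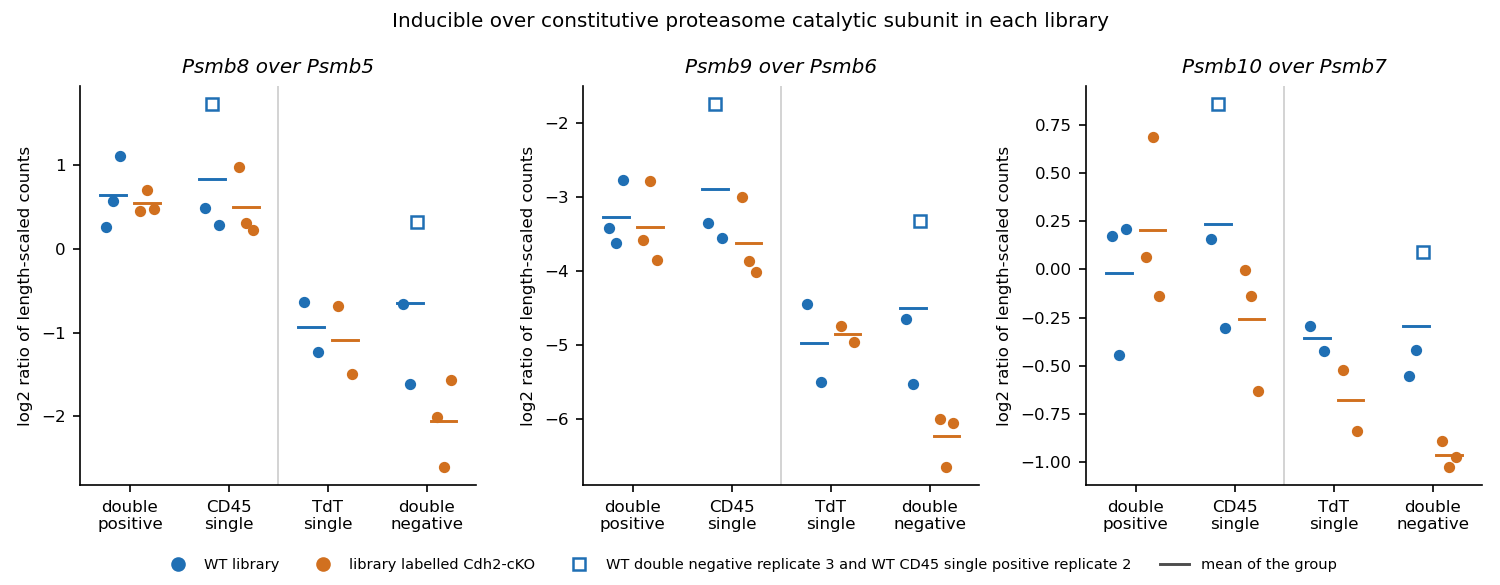
Log2 ratio of length-scaled counts of each inducible proteasome subunit to the constitutive subunit it replaces, for each library, by population; open squares are the 2 libraries that stood apart and bars are group means. The Psmb8 to Psmb5 ratio is above 0 in all 12 CD45+ libraries and below 0 in 9 of 10 CD45- libraries. Where 0 lies depends on the exon lengths used for scaling, while differences between libraries do not.

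Transport and loading followed the same direction. Tap1 and Tap2 encode the subunits that pair to form the TAP transporter. Tap1 lay at 28.1, 49.1 and 155 normalized CPM in CD45+ and at 8.39, 15.9 and 42.0 in CD45- libraries, with WT CD45 single positive replicate 2 as the 155. Tap2 lay at 15.95, 27.8 and 46.8 against 7.31, 14.4 and 25.9. Both overlapped, since 7 of 12 CD45+ libraries for Tap1 and 6 of 12 for Tap2 were above every CD45- library, with or without WT double negative replicate 3; for both genes the top CD45- library was WT TdT single positive replicate 1. The log2 differences were 1.43 ± 0.28 (edgeR adjusted p 0.000281) and 0.83 ± 0.17 (0.000459).

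Tapbp encodes tapasin, which bridges TAP and the empty heavy chain, and Erap1 the aminopeptidase that trims peptides to length. Tapbp lay at 201, 278 and 367 normalized CPM in CD45+ and at 118, 172 and 267 in CD45- libraries, with 7 of 12 CD45+ libraries above every CD45- library. Erap1 lay at 68.5, 80.9 and 117 against 39.5, 51.7 and 69.5, with 11 of 12 above. Tapbp had the smallest difference of the 10 genes, at log2 0.55 ± 0.12 (edgeR adjusted p 0.000454), and Erap1 the next, at 0.75 ± 0.13 (6.12e-05).

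Nlrc5 encodes the class I transactivator and was the least abundant of the 10 per length. It lay at 9.26, 14.1 and 106 normalized CPM in CD45+ and at 1.26, 3.18 and 10.1 in CD45- libraries. The 106 was WT CD45 single positive replicate 2, and the next highest library had 29.7, so the spread of Nlrc5 rested on 1 library. The log2 difference was 2.24 ± 0.42 (edgeR adjusted p 0.000152, 11 of 12 above every CD45- library). It ranged from 1.76 to 2.46 as each library was left out in turn, and stayed called.

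Levels of different genes compare only per length, as RPKM. The length is the exon length given with the counts, 860 bases for B2m and 3659 for Psmb9. It need not be the length of the transcript the cells made, so the order between genes depends on it. In CD45+ libraries the mean RPKM ran from B2m (5163 ± 1226, SD, n = 12) through H2-D1 (585 ± 126), H2-K1 (301 ± 175), Tapbp (82.0 ± 15.2), Psmb8 (71.7 ± 15.7), Psmb9 (32.1 ± 12.4), Erap1 (21.8 ± 4.01), Tap1 (10.6 ± 6.32) and Tap2 (7.41 ± 2.37) to Nlrc5 (2.95 ± 3.53). The neighbours Tapbp and Psmb8 lay within their spread, with Tapbp higher in 9 of 12 libraries, as did Psmb9 and Erap1 (10 of 12). The means of H2-D1 and H2-K1 (11 of 12), of Tap1 and Tap2 (12 of 12) and of Tap2 and Nlrc5 (11 of 12) also lay within their spread. The spreads of H2-K1 and Nlrc5 rested largely on WT CD45 single positive replicate 2, at 816 and 13.9 RPKM. The next highest library, WT double positive replicate 3, had 427 and 3.89. In CD45- libraries B2m (2253 ± 924, SD, n = 10), H2-D1 (264 ± 99.4), H2-K1 (120 ± 47.5) and Tapbp (54.8 ± 15.1) kept that order in all 10. Below them Psmb8 (22.7 ± 12.7) and Erap1 (13.1 ± 2.49) were within their spread (7 of 10), as were Erap1 and Psmb9 (7.73 ± 6.55; 9 of 10), Psmb9 and Tap2 (4.04 ± 1.54; 8 of 10), and Tap2 and Tap1 (3.93 ± 2.18; 6 of 10), and Nlrc5 was again the lowest at 0.584 ± 0.365.

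Other genes of the pathway, taken from lists fixed with the members, moved with CD45 in part. For the counts that follow, 63.7% of all genes were called and 32.6% were called higher. Of 16 other class I heavy chain genes 13 were tested, 6 were called higher and 1 lower, with a median log2 difference of 0.54 against 0.06 over all genes. Hfe, an iron-regulating relative that pairs with B2m, was higher by 2.18 ± 0.33 (12 of 12 libraries above the CD45- median), and H2-M3, which presents formylated peptides, by 0.95 ± 0.14 (12 of 12). H2-Q10 was lower, at -1.75 ± 0.41 (11 of 12 below the CD45- median), though not in WT libraries alone (-1.10). H2-Q6 rested on WT CD45 single positive replicate 2, which had 204 normalized CPM where no other library had over 33.1: its difference of 1.81 was 0.92 without that library and no longer passed. H2-Q7 and H2-T10 fell from 1.36 and 1.29 to 0.66 and 0.74 without it, and lost their calls too.

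Of the 12 loading and trimming partners 7 were called higher and 0 lower, with a median of 0.43; the 5 not called were Calr, Canx, Tapbpl, Thop1 and Hspa5. Psmb10, the remaining inducible proteasome subunit, was higher by log2 0.98 ± 0.14 and Lnpep, an aminopeptidase of endosomes, by 0.80 ± 0.15, with 12 of 12 CD45+ libraries above the CD45- median for each. Psme1 and Psme2, the interferon-inducible caps of the proteasome, were higher by 0.65 ± 0.14 and 0.55 ± 0.12 (12 of 12 each). The constitutive subunits Psmb6 (0.44 ± 0.10) and Psmb7 (0.37 ± 0.11) were called higher and Psmb5 was not, a median of 0.37 over the 3; in WT libraries alone neither passed. All of these calls are edgeR's at adjusted p of 0.05.

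Of the 18 regulators and interferon-signalling genes 11 were called higher and 0 lower, with a median of 0.66. Ciita, the class II transactivator, was higher by log2 3.84 ± 0.69, and Irf8, a factor of myeloid and B cells, by 2.29 ± 0.26. The receptor genes of interferon gamma, Ifngr1 (1.71 ± 0.14) and Ifngr2 (1.05 ± 0.15), and Irf2 (1.25 ± 0.17) and Irf9 (0.99 ± 0.18) were higher as well, with 12 of 12 libraries above the CD45- median for each of the 6. Ifng fell from 3.68 to 1.99 without WT CD45 single positive replicate 2 and was no longer called. Irf1, an early interferon response gene that binds class I promoters, did not pass: 4 of 12 CD45+ libraries were above the CD45- median, and the highest of all was WT CD45 single positive replicate 2, at 368 normalized CPM. Jak1, Jak2, Rela, Relb, Rfx5 and Rfxap did not pass either.

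**Figure D4:**
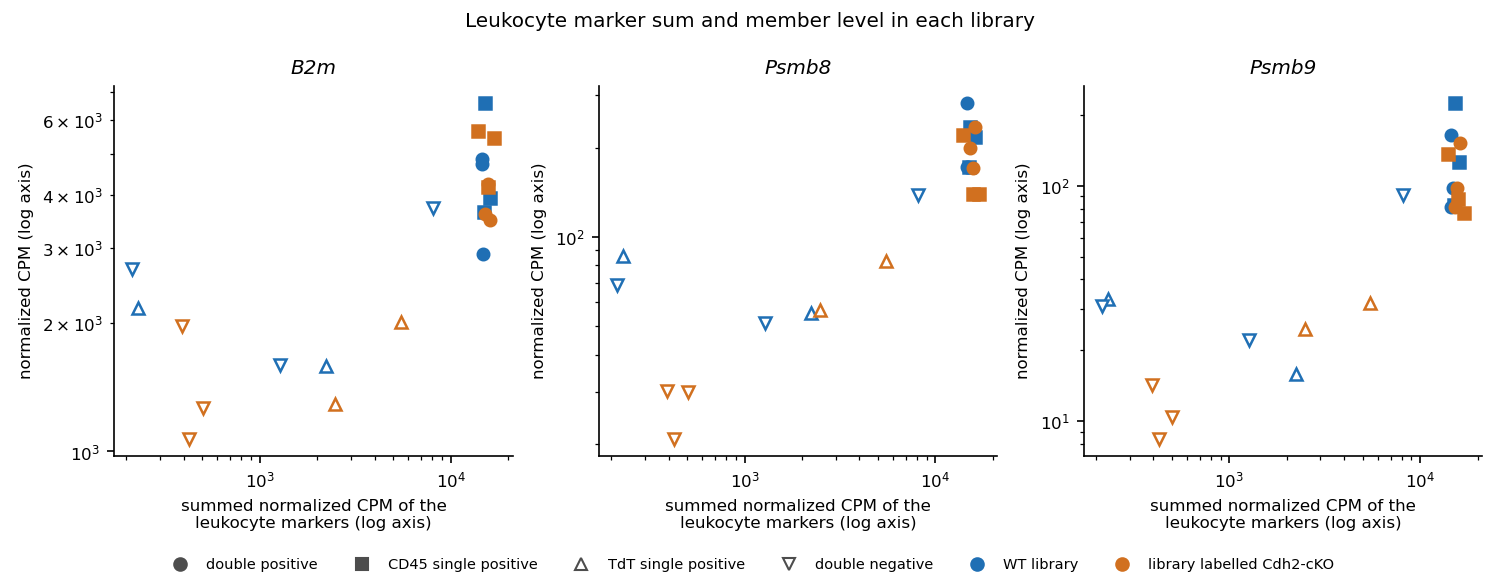
Summed normalized CPM of the 8 leukocyte markers (x, log axis) and normalized CPM of B2m, Psmb8 and Psmb9 (y, log axis) in each of the 22 libraries, with populations by symbol and genotype by color. Among CD45- libraries (open symbols) the 3 double negative libraries labelled Cdh2-cKO, with sums of 392 to 503, have the lowest Psmb8 and Psmb9, below both libraries with sums of 215 and 231. WT double negative replicate 3, with the sum of 8113, has the highest B2m, Psmb8 and Psmb9 among them. The part of leukocytes in these values was not tested.

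Within the CD45+ populations no class I gene passed the test for TdT. Between double positive and CD45 single positive libraries, averaged over genotypes, edgeR called 0 of 10, beside 0.00666% of all genes (1 gene, Duoxa2, named after its value was seen). At an unadjusted p under 0.05 the count was 0 of 10 and 609 of 15018, and DESeq2 and limma also called 0 of 10. The median log2 difference was -0.10 over the 10 (range -0.54 to 0.14) and -0.06 over all genes. Without WT CD45 single positive replicate 2 it was 0.18 over the 10 and 0.01 over all genes, and Nlrc5, the -0.54, turned to 0.44. All 3 B cell markers (median log2 difference -3.82), all 6 T cell markers (-0.94), all 4 NK markers (-1.44) and all 8 fibroblast markers (-0.75) were below 0 here, with 0 called. Without WT CD45 single positive replicate 2 those medians were 0.45, 1.57, 0.61 and -0.41, and the part of these cell types was not tested. Of the 46 other pathway genes tested, 0 were called.

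Without CD45, the TdT comparison sets TdT+ stromal cells beside the stromal cells with neither marker, and no class I gene passed there by edgeR. Tapbp and Tap2 are given first and Psmb8 after them. Tapbp was at 267 and 192 normalized CPM in WT TdT single positive and at 249 and 183.0 in those labelled Cdh2-cKO, against 156, 160.4 and 211 in WT double negative and 128, 118 and 140.5 in double negative labelled Cdh2-cKO. Tap2 was at 25.9, 13.8, 23.8 and 17.8 in the same order of TdT single positive libraries, against 15.1, 11.9 and 15.1, and 7.31, 10.4 and 11.9. Both overlapped: 2 of 4 TdT single positive libraries for Tapbp and 3 of 4 for Tap2 were above every double negative library, and 4 of 4 were above the median. In every pair of libraries with the same genotype and replicate number, both genes were higher in TdT single positive. The log2 differences were 0.56 ± 0.17 for Tapbp and 0.78 ± 0.25 for Tap2, and neither passed edgeR's test (adjusted p 0.087 and 0.106; over the alternatives 0.0217 to 0.662 and 0.0534 to 0.654).

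In that comparison edgeR called 0 of 10 genes beside 1.89% of all genes, with 2 of 10 and 2847 of 15018 at an unadjusted p under 0.05. DESeq2 called 1, Tapbp (adjusted p 0.0264), among 982 genes, and limma 0 among 718. Without WT double negative replicate 3, edgeR called Tapbp (log2 0.64, adjusted p 0.0369) and Psmb8 (0.80, 0.0485) among 878 genes, against 284 with all libraries, where Psmb8 with all libraries had 0.54 ± 0.26. For Psmb8, TdT single positive minus double negative was -0.29 in WT libraries alone and 1.36 in libraries labelled Cdh2-cKO alone, where 3 of 10 genes were called among 1149 of all genes. That difference between genotypes was not tested. Leukocyte and macrophage markers turned in the same way: in libraries labelled Cdh2-cKO alone all 8 and all 6 were called higher in TdT single positive (median log2 difference 3.54 and 4.16), and in WT libraries alone all were below 0 (-1.57 and -1.59) with 0 called. In the labelled libraries the leukocyte sums were 5487 and 2488 in TdT single positive and 392, 427 and 503 in double negative, and the macrophage sums 6101 and 2164 against 216, 304.5 and 180.4, without overlap. The WT value includes double negative replicate 3 (138.5 normalized CPM), a number that no TdT single positive library has. In the 4 pairs of one genotype and number, TdT single positive was above double negative each time: 86.0 and 68.8, 55.3 and 51.2, 82.9 and 30.1, and 56.5 and 20.7. H2-K1 and H2-D1 were also higher in TdT single positive in every pair, as Tapbp and Tap2 were. B2m, Tap1, Psmb9, Nlrc5 and Erap1 were not. With the replicate number as a replicate block the log2 difference of Psmb8 was 0.66 (edgeR adjusted p 0.182), that of Tapbp 0.55 (0.144) and that of Tap2 0.70 (0.198). The median over the 10 was 0.29 (range -0.15 to 0.78), and 0.07 over all genes; without WT double negative replicate 3 it was 0.55 and 0.10.

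The partners Pdia3, an oxidoreductase of the loading complex (log2 1.2 ± 0.26, adjusted p 0.033), and Psme3, a nuclear cap of the proteasome (0.62 ± 0.14, adjusted p 0.0317), were called higher in TdT single positive, 2 of 12 partners, by edgeR. That count fell to 0 without any of WT TdT single positive replicate 1, WT double negative replicate 2, TdT single positive replicates 1 or 2 labelled Cdh2-cKO, or double negative replicate 1 labelled Cdh2-cKO. Of the other heavy chains, the constitutive subunits and the regulators 0 were called. The leukocyte sum of TdT single positive libraries, 231 to 5487, overlapped that of double negative libraries, 215 to 8113, but all 8 leukocyte markers were above 0 (median log2 difference 0.91, range 0.72 to 1.22, 0 called), as were 5 of 6 T cell markers (1.62, 0 called). Without WT double negative replicate 3 the leukocyte median was 2.10 with 1 called, the macrophage median 2.45 with 2 called and the T cell median 2.44 with 0 called. Other marker lists leaned to one side as well: all 3 erythroid markers were below 0 (median log2 difference -4.68, with Alas2 called), as were all 6 epithelial tumor markers (-0.98), and all 8 fibroblast markers (1.01) and all 6 macrophage markers (1.24) were above 0, with 0 called. The part of these cell types in the values was not tested.

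**Figure D5:**
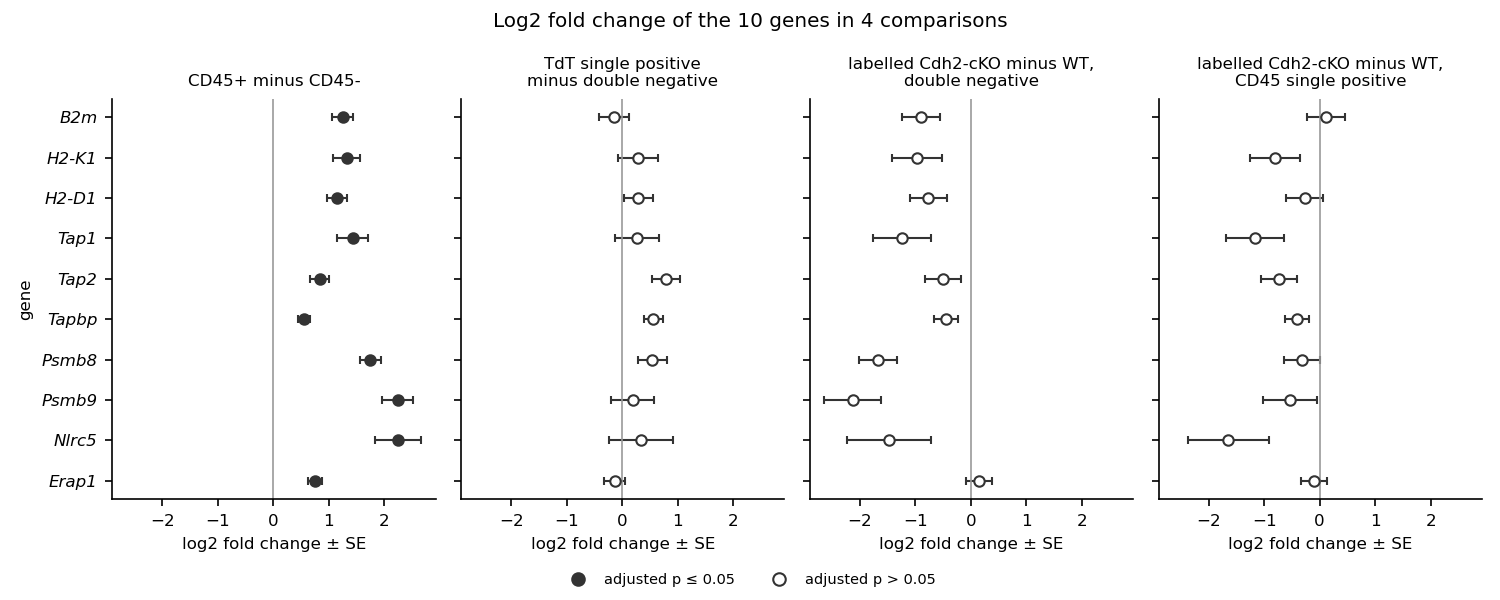
Log2 fold change ± SE (x axis) of the 10 genes (y axis) for CD45+ minus CD45-, TdT single positive minus double negative, and labelled Cdh2-cKO minus WT in the double negative and CD45 single positive populations; filled points passed the adjusted p of 0.05. Only the CD45 panel has filled points, with all 10 above 0.

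For genotype, Cdh2 itself was read first. It was at 9.13 and 5.19 normalized CPM in WT TdT single positive and at 17.2 and 13.1 in those labelled Cdh2-cKO, and at 6.02, 7.47 and 4.52 in WT double negative against 12.5, 18.4 and 14.2 in double negative labelled Cdh2-cKO. In both CD45- populations every library labelled Cdh2-cKO was thus above every WT library. In TdT single positive cells that direction goes against the label. Double negative cells lack TdT, so the label, a deletion where the Cre is active, foresees no loss there. In CD45+ libraries Cdh2 lay between 0 and 2.74. By edgeR the log2 differences of 1.08 and 1.32 did not pass (adjusted p 0.668 and 0.623). Whole-gene counts do not single out a deleted exon, so the genotype is kept as a label, and directions below are those of the labels.

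In double negative libraries no class I gene passed edgeR's test for genotype, and the largest values were those of the immunoproteasome subunits. Psmb8 was at 68.8, 51.2 and 138.5 normalized CPM in WT and at 30.1, 20.7 and 29.8 in libraries labelled Cdh2-cKO. Psmb9 was at 30.8, 22.2 and 91.6 against 14.3, 8.39 and 10.4. For both genes all 3 labelled libraries were below all 3 WT libraries. The log2 differences were -1.68 ± 0.34 and -2.13 ± 0.51, with edgeR adjusted p of 0.178 and 0.180 (over the alternatives 0.00156 to 1 and 0.0049 to 1).

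WT double negative replicate 3, the library with the leukocyte sum of 8113, enlarged both values: without it they were -1.14 ± 0.31 and -1.25 ± 0.43, not called. In WT double negative replicates 1 and 2, with leukocyte sums of 215 and 1275, Psmb8 was above the 3 labelled libraries, whose sums were 392, 427 and 503. All 8 leukocyte markers were below 0 (median log2 difference -3.38) and so were all 6 macrophage markers (-3.79), all of them at an unadjusted p under 0.05 and 0 called. Without WT double negative replicate 3 the medians were -1.04 (7 of 8 below 0) and -1.28 (6 of 6), and the leukocyte sum of WT replicate 1 lay below those of all 3 labelled libraries. With all libraries, all 6 T cell (-1.90), all 4 NK (-1.98), all 4 neutrophil (-1.14) and all 3 B cell markers (-0.60) were also below 0, with 0 called. Macrophage sums were 103, 1274 and 8290 in the WT libraries and 216, 304.5 and 180.4 in the labelled ones, with C1qb the most abundant. Fibroblast sums were 36171, 10671 and 5119 in the WT libraries and 10634, 10151 and 17773 in the labelled ones, with Col1a1 the most abundant gene in all 6. Epithelial tumor sums were 506, 1405 and 596 against 1229, 1996 and 1075, with Krt18 the most abundant, in a sort that the paper describes as cleared of GFP+ tumor cells. The part of these cell types in the values was not tested.

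The surface molecule and the loading genes gave smaller values in double negative cells. B2m was at 2686, 1592 and 3726 normalized CPM in WT and at 1968, 1069 and 1266 in libraries labelled Cdh2-cKO, which overlapped. H2-K1 was at 408, 232 and 526 against 205, 183 and 208, and H2-D1 at 612, 589 and 1195 against 409, 469 and 530.1, with all 3 labelled libraries below all 3 WT libraries for each. Tapbp was also below in all 3, at 128, 118 and 140.5 against 156, 160.4 and 211. The log2 differences of B2m, H2-K1, H2-D1 and Tapbp were -0.90, -0.97, -0.77 and -0.45, and -0.56, -0.67, -0.34 and -0.27 without WT double negative replicate 3, with edgeR adjusted p of 0.320, 0.509, 0.424 and 0.541 over all libraries. Tap1 and Nlrc5 had larger differences than these, at -1.24 ± 0.52 and -1.47 ± 0.76 over all libraries (edgeR adjusted p 0.400 and 0.609). For both genes the WT and labelled libraries overlapped.

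By edgeR 0 of 10 genes were called in double negative cells by genotype, beside 0% of all genes, with 6 of 10 and 1441 of 15018 at an unadjusted p under 0.05. DESeq2 called 2 of 10, Psmb8 and Psmb9 (adjusted p 0.00156 and 0.0049), among 522 genes, and limma 0 among 0. EdgeR called Psmb8 and Psmb9 without WT double negative replicate 1 (adjusted p 0.0152 and 0.0195, among 604 genes) and Psmb8 without replicate 2 (0.0352, among 31 genes). Of the 10, 9 were below 0 and Erap1 was above, with a median log2 difference of -0.93 against -0.06 over all genes, and of -0.62 against -0.03 without WT double negative replicate 3. The other class I heavy chains, partners, constitutive subunits and regulators had 0 calls and medians of -0.57, -0.04, -0.15 and -0.60.

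In CD45 single positive libraries the genotype values turned on WT replicate 2. Nlrc5 was at 9.26, 106 and 12.8 normalized CPM in WT and at 19.0, 11.4 and 10.8 in those labelled Cdh2-cKO. Apart from the 106 the groups overlapped. The log2 difference of -1.64 ± 0.74 became 0.31 ± 0.55 without it, a change of sign, and limma gave 0.08 with all libraries. For Tap1 and Tap2 the differences of -1.17 ± 0.52 and -0.74 ± 0.32 became -0.47 ± 0.50 and -0.44 ± 0.33. EdgeR called 0 of 10 beside 0% of all genes, with 3 of 10 and 1474 of 15018 at an unadjusted p under 0.05, and DESeq2 and limma called 0 of 10. The median was -0.46, against -0.06 over all genes, and -0.07 against 0.03 without WT replicate 2. All 6 T cell markers (median log2 difference -4.62), all 4 NK markers (-4.07) and all 3 B cell markers (-7.78) were below 0 with all libraries, 0 of them called. Without WT replicate 2 those medians were 0.49, 0.55 and 0.31, so they rested on that library, and their part in the values was not tested.

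The remaining genotype comparisons had no called class I gene. In TdT single positive libraries edgeR called 0 of 10, beside 0.00666% of all genes (1 gene, Nipal3, named after its value was seen), with 0 of 10 and 1576 of 15018 at an unadjusted p under 0.05. In double positive libraries it called 0 of 10 beside 0%, with 0 of 10 and 515 of 15018. DESeq2 and limma called 0 of 10 in both. The medians over the 10 were -0.05 (range -0.53 to 0.34) and -0.13 (range -0.49 to 0.18), and 0 and 0.01 over all genes. In TdT single positive all 8 leukocyte (median log2 difference 1.75) and all 6 macrophage markers (1.86) were above 0 and all 8 fibroblast markers (-1.2) below 0. There 5 of 6 dendritic (2.88) and 5 of 6 epithelial tumor markers (2.46) were above 0, and all 6 endothelial markers (-1.22) below 0. In double positive all 6 T cell (-2.61) and all 4 NK markers (-2.75) were below 0. Of these markers 0 were called, and their part was not tested. These comparisons share no library with each other, and with 2 or 3 libraries a group a p that misses the threshold does not show that the levels were alike.

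Whether the CD45 difference itself differed was tested by interaction terms. Between genotypes edgeR called 0 of 10 beside 0% of all genes, with 0 of 10 and 1157 of 15018 at an unadjusted p under 0.05 and 0 of 10 by DESeq2 and limma. The median difference of differences was 0.13, against 0.01 over all genes; without WT CD45 single positive replicate 2 it was 0.49 against 0.07, and without WT double negative replicate 3 it was 0.05 against -0.04. All 8 leukocyte markers were above 0 (0.69, and -0.48 without WT double negative replicate 3), as were all 8 fibroblast markers (1.35), and all 6 T cell markers were below 0 (-3.08, and -0.52 without WT CD45 single positive replicate 2), with 0 called. With all libraries, all 6 macrophage markers (1.27) were above 0, and all 4 NK (-2.16) and all 3 B cell markers (-4.12) below 0, with 0 called. Between TdT+ and TdT- cells it called 0 of 10 beside 0.00666% of all genes (1 gene, Mrps34, named after its value was seen), with 1 of 10 and 1431 of 15018 at an unadjusted p under 0.05 and 0 of 10 by DESeq2 and limma. There the median was -0.41 for the 10 and -0.15 for all genes. Without WT CD45 single positive replicate 2 it was -0.08 against -0.06, and without WT double negative replicate 3 it was -0.58 against -0.16. All 8 leukocyte (-1.01), all 6 macrophage (-1.05) and all 8 fibroblast markers (-1.85) were below 0, with 0 called, and without WT double negative replicate 3 they were at -2.09, -2.34 and -1.61. The part of these cell types in either interaction was not tested.

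The genes whose pattern was most like that of Nlrc5 after each group's mean was taken away, over 22 libraries of log2 CPM, were Cd28 (r 0.92), Cd79b (0.92), Gm8369 (0.90), Slamf1 (0.90) and Ankrd44 (0.90). Cd28 is a costimulatory receptor of T cells and Cd79b part of the B cell receptor. Without both libraries that stood apart, over 20 libraries, the r values were 0.78, 0.78, 0.78, 0.69 and 0.69, so they rested in part on those 2 libraries. Of the other 9 members, over all 22 libraries, H2-K1 was the most like Nlrc5 (0.87) and Tap2 the least (0.43). Without both, B2m was the most like it (0.73, with H2-K1 at 0.66) and Tapbp the least (0.16, with Tap2 at 0.18). Libraries share populations and some share mice, so these values are a description.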

How the data were processed

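RNA of sorted tumor cells (SMARTer libraries) was aligned by the authors with STAR 2.0.4b and assigned to genes with featureCounts of Subread (1.45 in the labels); the deposited tables give counts per gene. The CPM and RPKM deposited by the authors equal those counts scaled to library size and to exon length. The other per-sample columns number 0. Gene identifiers were paired with symbols for 40254 of 41388 genes, 355 rRNA genes were left out, and 15018 genes that passed 1 CPM in 2 or more libraries were tested; all 10 members passed. Tests used edgeR 4.0.16 (quasi-likelihood, TMM, 1 mean per population and genotype) in R 4.3.3 with BH over all genes tested; the code was tested on simulated data. Groups of 2 or 3 libraries share 1 estimate of the spread. Ratios used a pseudocount of 0.5 and permutation tests in scipy 1.17.1. Tables used Python 3.11.15, pandas 2.3.3 and numpy 2.4.6. Depth was 16594228 to 26784003 reads a library.

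Alternatives were limma 3.58.1 with voom quality weights (the test of the study's methods), DESeq2 1.42.0, RLE factors, no filter, a replicate block, each library left out, both libraries that stood apart left out, each genotype alone and a pseudocount of 1. The study's contrast of 1 population with the mean of the others was not used, since it mixes CD45 and TdT. Members, marker lists and pathway lists were chosen with earlier results of these data known. The named genes were the members, genes of the lists, and the 5 genes outside them with the highest Pearson r to Nlrc5. The counts of genes without overlap when libraries were left out, the ratios without both libraries, and the marker list medians without those libraries or within a genotype, were added after seeing the data.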

Additional observations from a re-analysis of the deposited data

Results flagged for a closer look

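In each sorted population, both genotypes together, the library farthest from the rest was compared with the spread of the population: its gap to the nearest other library, as a share of the whole range of normalized CPM. That share was unusually large in 7 of 40 combinations of gene and population. Chance alone would give about 1 in 20 if the values were independent and normally distributed. Genes here share libraries and each population pools both genotypes, so the 7 of 40 cannot be set against that rate. WT CD45 single positive replicate 2 was high for Nlrc5 (share 0.900), H2-K1 (0.796) and Tap1 (0.681). WT double negative replicate 3 was high for H2-D1 (0.742) and Psmb9 (0.731). In double positive libraries WT replicate 3 was high for H2-K1 (0.626) and WT replicate 2 was high for Erap1 (0.742).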

How the results depend on the processing

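The CD45 difference kept its direction for all 10 members under every alternative, and its call too, except for Tapbp in WT libraries alone (0.47). Leaving out each library gave 10 of 10 calls each time. Psmb10 to Psmb7 fell to 0.43 in WT libraries alone (adjusted p 0.0693). The members without overlap between CD45+ and CD45- libraries, 1 with all libraries, were 7 without WT double negative replicate 3 and 7 without both libraries that stood apart.

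Members called in TdT single positive against double negative, 0 by edgeR, were 1 by DESeq2, 2 without both libraries, 3 in libraries labelled Cdh2-cKO alone and 0 to 2 as each library was left out. Psmb8 turned to -0.29 there in WT libraries alone. Members called by genotype in double negative, 0 by edgeR, were 2 by DESeq2 and 0 to 2 as each library was left out. Nlrc5 by genotype in CD45 single positive turned to 0.0809 with limma and 0.31 without both libraries, and ranged from -2.12 to 0.31 as each was left out. The cause of these changes was not tested.

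Genes called in TdT single positive against double negative, 284 by edgeR, were 718 by limma, 982 by DESeq2, 92 without the filter, 1509 without both libraries, 0 in WT and 1149 in labelled Cdh2-cKO libraries alone, and 30 to 878 as each library was left out. By genotype they were, by DESeq2, 134 in TdT single positive (0 by limma, 68 without both libraries, 0 to 89 leaving out each), 522 in double negative (0 to 604 leaving out each), 26 in CD45 single positive, and 1 in double positive. For CD45 the WT libraries alone gave 5575 genes, and for double positive against CD45 single positive DESeq2 gave 6 and WT alone 0.

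With the replicate number as a replicate block, 10 members (9151 genes) were called for CD45 and 0 in each other comparison, with 185 genes called for TdT single positive against double negative. Deviations of same-numbered libraries correlated at r -0.30 to 0.59 within a genotype (10 of 30 pairs over 0.1, with all 4 of TdT single positive and double negative among them) and at -0.39 to 0.23 between genotypes (2 of 41), which cannot share a mouse. Whether the numbers stand for mice was not tested. DESeq2 gave no adjusted p for 101 genes. Depth limits low genes most: Nlrc5 was at 1.26 normalized CPM in its lowest library, above the limit of 0.103 to 0.201 for a count of 0.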
